A study of Mus musculus with 6 samples.

Results

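ATF4 and 9 genes of the cellular stress response that it controls or acts beside were followed in mouse leukaemia cells after induced deletion of Chaf1b. The 10 genes were taken by symbol: Atf4, Atf5 and Atf3, which encode transcription factors, Asns, Chac1 and Slc7a11, which handle amino acids and glutathione, and Trib3, Sesn2, Ddit4 and Nupr1, which encode regulators of growth and survival. They are 10 of the 35869 gene symbols listed in every library, and the one-carbon enzymes that ATF4 also controls were left to a list of their own. All 10 had a value in each library, and all 10 passed the filter of at least 1 TPM in at least 3 libraries. TPM is a measure of transcript abundance corrected for length and library total, so levels of different genes can be set beside each other.

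The cells were acute myeloid leukaemia cells made by retroviral transfer of MLL-AF9, carried floxed Chaf1b alleles and had been transduced with CreERT2, a recombinase that acts once an oestrogen receptor ligand is given. Chaf1b encodes a subunit of CAF-1, which loads histones onto new DNA. The 3 knockout libraries (KO) came from cells given β-estradiol, at a dose labelled 10e-7 M, for 48 hours, and the 3 control libraries (WT) from floxed CreERT2 cells given ethanol. Both groups grew in medium with SCF at 100 ng/mL, IL6 at 50 ng/mL and IL3 at 20 ng/mL. The design text calls the cells clones but does not say which clone gave which library, and nothing says that the replicates were separate cultures. A p-value here sets the difference against the spread of these libraries, which may be technical. The ligand and the deletion came together in every KO library and cannot be told apart.

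ATF4 is the main effector of the integrated stress response. Kinases that sense lack of amino acids, unfolded protein in the endoplasmic reticulum, double-stranded RNA or lack of haem phosphorylate the initiation factor eIF2, which slows most translation but lets ribosomes reach the ATF4 reading frame. ATF4 protein then pairs with C/EBP proteins on composite DNA elements and raises genes for amino acid uptake and synthesis and for the charging of tRNA. Because this control acts largely on translation, the Atf4 mRNA measured here does not show how much ATF4 protein the cells held.

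The composite element is shown first, since it is the sequence through which ATF4 is known to act. The core TGATGNAA, read as TTNCATCA where it lies on the other strand, was searched in the 250 bases before each start that the RefSeq promoter table lists (GRCm38.p6, the assembly that mm10 names). For Slc7a11 that start lies 55.5 kb inside the gene as RefSeq draws it, and the stretch before the gene's outer end was not searched. All 10 genes matched a promoter entry, and 5 of them held the core: Asns, Chac1, Atf3, Nupr1 and Slc7a11. It was present in 3.45% of all 32851 promoters of that length, and in 241 of the 9569 tested genes with an entry (2.52%). The stretches around it are printed 5′ to 3′ along the gene's strand, with the core in capitals.
Asns, chr6:7693210-7693268, minus strand, core 23 to 16 bases before the start: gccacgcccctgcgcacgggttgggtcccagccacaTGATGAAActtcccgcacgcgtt
Chac1, chr2:119351013-119351092, plus strand, core 193 to 186 bases before the start: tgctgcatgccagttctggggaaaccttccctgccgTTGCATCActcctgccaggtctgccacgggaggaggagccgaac
Atf3, chr1:191183400-191183479, minus strand, core 110 to 103 bases before the start: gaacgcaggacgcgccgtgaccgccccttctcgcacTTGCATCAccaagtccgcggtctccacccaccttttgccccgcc
Nupr1, chr7:126625537-126625616, minus strand, core 110 to 103 bases before the start: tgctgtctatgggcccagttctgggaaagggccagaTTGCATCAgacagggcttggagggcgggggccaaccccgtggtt
Slc7a11, chr3:50443617-50443715, minus strand, cores 66 to 59 and 47 to 40 bases before the start: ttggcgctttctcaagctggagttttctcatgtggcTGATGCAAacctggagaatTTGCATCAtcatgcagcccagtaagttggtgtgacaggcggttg
In Asns the core lies on the gene's own strand, in Chac1, Atf3 and Nupr1 on the opposite strand, and in Slc7a11 once on each. Atf4, Atf5, Trib3, Sesn2 and Ddit4 had no match in this window, which says nothing of elements elsewhere in these genes. A match is a string of letters and not a measured binding site.

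Before the members, the libraries were checked. Chaf1b was at 17.7, 14.4 and 14.2 TPM in KO replicates 1, 2 and 3 and at 48.6, 49.0 and 50.6 TPM in WT replicates 1, 2 and 3, so the labels held for the targeted gene. All 12 markers of the leukaemia and its progenitors passed the filter. Of these, Mpo (1017.6, 2311.4 and 2232.8 TPM in KO and 19.4, 127.6 and 83.8 TPM in WT) and Elane, which encode proteins of myeloid granules, were called higher in KO, and Hoxa9 (174 ± 11.2 against 213 ± 8.47 TPM, SD, n = 3 each) and Hoxa10 were called lower. Of all tested genes, 12.9% were called higher in KO and 6.11% lower. Of 43 further tested markers of 9 other lineages, 24 were called higher in KO and none lower. They were 5 of 11 for late granulocytes, 3 of 6 for monocytes and macrophages, 3 of 6 for erythroid cells and 2 of 3 for megakaryocytes. Mast cells and basophils had 2 of 4, B cells 4 of 4, T and NK cells 1 of 2, and stromal and endothelial cells 2 of 4. Dendritic cells had 2 of 4, where the 4 include Flt3 of the leukaemia list, which was not called and is not among the 43. Pf4 of megakaryocytes was at 11.3, 28.8 and 23.0 TPM in KO and 0.3, 0.1 and 0.3 TPM in WT, and Acta2 of stromal cells at 36.8, 95.3 and 82.0 TPM in KO and 20.7, 13.6 and 12.9 TPM in WT. Pf4, H2-Aa, Cd79a and Col1a1 reached 1 TPM in KO libraries alone. For such genes the filter itself favoured a higher call. Summed over its list, the level was 1309.3 to 1616.2 TPM in KO and 1087.0 to 1195.8 TPM in WT for monocytes and macrophages, and 33.9 to 48.4 TPM and 19.1 to 22.9 TPM for B cells. Among those listed at 0 in all 6 libraries were Fcer1a, Mcpt4, Prss34, Siglech, Ms4a1, Cd4, Cd8a, Ncr1 and Dcn. The summed level of 14 late granulocyte markers was 692.0, 1556.6 and 1389.4 TPM in KO replicates 1 to 3 and 551.0, 121.8 and 153.9 TPM in WT replicates 1 to 3. Replicate 1 thus stood apart in each group, and the column header of WT replicate 1 alone mentions a replacement. In bulk RNA, fewer cells of a type and less RNA per cell cannot be told apart.

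Atf4 mRNA was abundant and moderately lower in KO. It was at 529.0, 431.7 and 449.3 TPM in KO replicates 1, 2 and 3 and at 602.1, 555.7 and 585.4 TPM in WT replicates 1, 2 and 3. Every KO library lay below every WT library, with KO replicate 1 the nearest to WT. Means were 470.0 ± 51.8 TPM in KO and 581 ± 23.5 TPM in WT (SD, n = 3 each), so KO kept 80.9% of the WT level. On the log2(TPM + 1) scale, on which all fold changes here are given, Atf4 fell by 0.31 (SE 0.08, limma adjusted p = 0.048). An exact two-sided permutation test of its TPM gave p = 0.1, and with 3 libraries a group no smaller p is possible. Atf4 was the 1 member of 10 called in either direction at an adjusted p under 0.05, and over all 13575 tested genes 6.11% were called lower and 12.9% higher. Of all calls 67.8% were toward higher values in KO with TPM as deposited, 43.9% after quantile normalization and 46.0% after median scaling.

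The call for Atf4 stood close to the threshold. It was lost without KO replicate 2 (adjusted p = 0.17, log2 fold change -0.25), KO replicate 3 (0.17, -0.28), WT replicate 1 (0.067, -0.28), WT replicate 2 (0.11, -0.34) or WT replicate 3 (0.14, -0.30), and was kept without KO replicate 1 (0.0068, -0.40). Without KO replicate 2, KO replicate 3, WT replicate 2 or WT replicate 3, 0 to 3 of all tested genes were called lower at all. Over 17 alternatives the log2 fold change of Atf4 lay between -0.40 and -0.25 and its adjusted p between 0.0042 and 0.17.

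The other members that are transcription factors, Atf5 and Atf3, were not called. Atf5, a relative that is under the same translational control, was at 167.7, 148.7 and 144.5 TPM in KO and 128.8, 136.2 and 147.0 TPM in WT. The groups overlapped through WT replicate 3, with a log2 fold change of 0.16 (SE 0.08, limma adjusted p = 0.18). In RefSeq, Atf5 overlaps Nup62 and Il4i1b, and no source used here says if counting respected strand, which leaves its level uncertain. Atf3, an immediate stress-induced factor that ATF4 can raise, was at 3.4, 2.0 and 1.6 TPM in KO and 7.4, 0.6 and 2.8 TPM in WT. WT held both the highest and the lowest value of Atf3, with a WT mean ± SD of 3.60 ± 3.47 TPM over 3 libraries, and its log2 fold change of -0.19 (SE 0.58, limma adjusted p = 0.84) became 0.40 without WT replicate 1.

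Among the genes of amino acids and glutathione, Asns and Chac1 lay below WT in every KO library. Asns encodes asparagine synthetase, a textbook target of the amino acid response. It was at 155.3, 111.5 and 115.5 TPM in KO and 170.5, 169.4 and 183.6 TPM in WT. The WT libraries differed little among themselves, and KO replicate 1 lay nearer to them than to the other KO libraries. The KO mean was 73.0% of the WT mean, with a log2 fold change of -0.47 (SE 0.13, limma adjusted p = 0.052), just outside the threshold. Without KO replicate 1 Asns passed it (-0.62, adjusted p = 0.0026), as it did after median scaling (-0.52, adjusted p = 0.037).

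Chac1 encodes an enzyme that breaks down glutathione and is among the genes most responsive to ATF4. It was at 62.0, 41.2 and 42.6 TPM in KO and 102.0, 63.4 and 72.4 TPM in WT. The gap between the groups was narrow, since KO replicate 1 came close to WT replicate 2, and WT replicate 1 was the highest library. The KO mean was 61.3% of the WT mean (log2 fold change -0.69, SE 0.22, limma adjusted p = 0.073). Slc7a11, the cystine carrier of the cystine and glutamate exchanger, was weakly expressed at 2.4, 2.3 and 2.0 TPM in KO and 2.6, 1.8 and 2.1 TPM in WT. The KO values lay within the WT range, with a log2 fold change of 0.04 (SE 0.12, limma adjusted p = 0.85). Its sign turned under quantile normalization (-0.29) and median scaling (-0.02).

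Among the regulators of growth and survival, all 4 genes had a lower mean in KO, the groups were separated in Sesn2 alone, and none was called. Trib3 encodes a pseudokinase that ATF4 induces and that in turn restrains ATF4. It was at 83.4, 40.6 and 40.6 TPM in KO and 133.2, 63.8 and 96.4 TPM in WT. KO replicates 2 and 3 lay below all WT libraries, while KO replicate 1 lay above WT replicate 2. With a KO mean of 56.1% of WT, Trib3 had the largest fold change of the 10 genes (log2 fold change -0.85, SE 0.37, limma adjusted p = 0.14), and only 0.169% of tested genes had a log2 fold change as low or lower. Without KO replicate 1 it was -1.19 (adjusted p = 0.044).

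Sesn2 encodes sestrin 2, a leucine sensor that restrains the growth kinase complex mTORC1. It was at 67.0, 47.3 and 47.5 TPM in KO and 110.1, 69.3 and 71.1 TPM in WT. Every KO library lay below every WT library, but WT replicate 1 was far above the other WT libraries and KO replicate 1 just below them. The KO mean was 64.6% of the WT mean (log2 fold change -0.61, SE 0.22, limma adjusted p = 0.096). Sesn2 was -0.77 without KO replicate 1 (adjusted p = 0.056) and -0.39 without WT replicate 1 (adjusted p = 0.11).

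Ddit4 encodes REDD1, an mTORC1 inhibitor that is also induced by hypoxia and glucocorticoids. It was at 108.5, 47.9 and 46.5 TPM in KO and 87.5, 46.5 and 93.0 TPM in WT. KO replicate 1 was the highest of the 6 libraries and WT replicate 2 shared the lowest value with KO replicate 3. The log2 fold change of -0.21 (SE 0.40, limma adjusted p = 0.74) moved to -0.61 without KO replicate 1 and to -0.004 without KO replicate 3, not called in either. Nupr1 encodes a small chromatin protein of the stress response. It was at 136.2, 115.6 and 110.3 TPM in KO and 141.1, 123.8 and 139.5 TPM in WT, overlapping through KO replicate 1 (log2 fold change -0.16, SE 0.09, limma adjusted p = 0.26). Nupr1 overlaps the long noncoding RNA gene Gm39087 in RefSeq, so its level is uncertain as well.

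**Figure D1:**
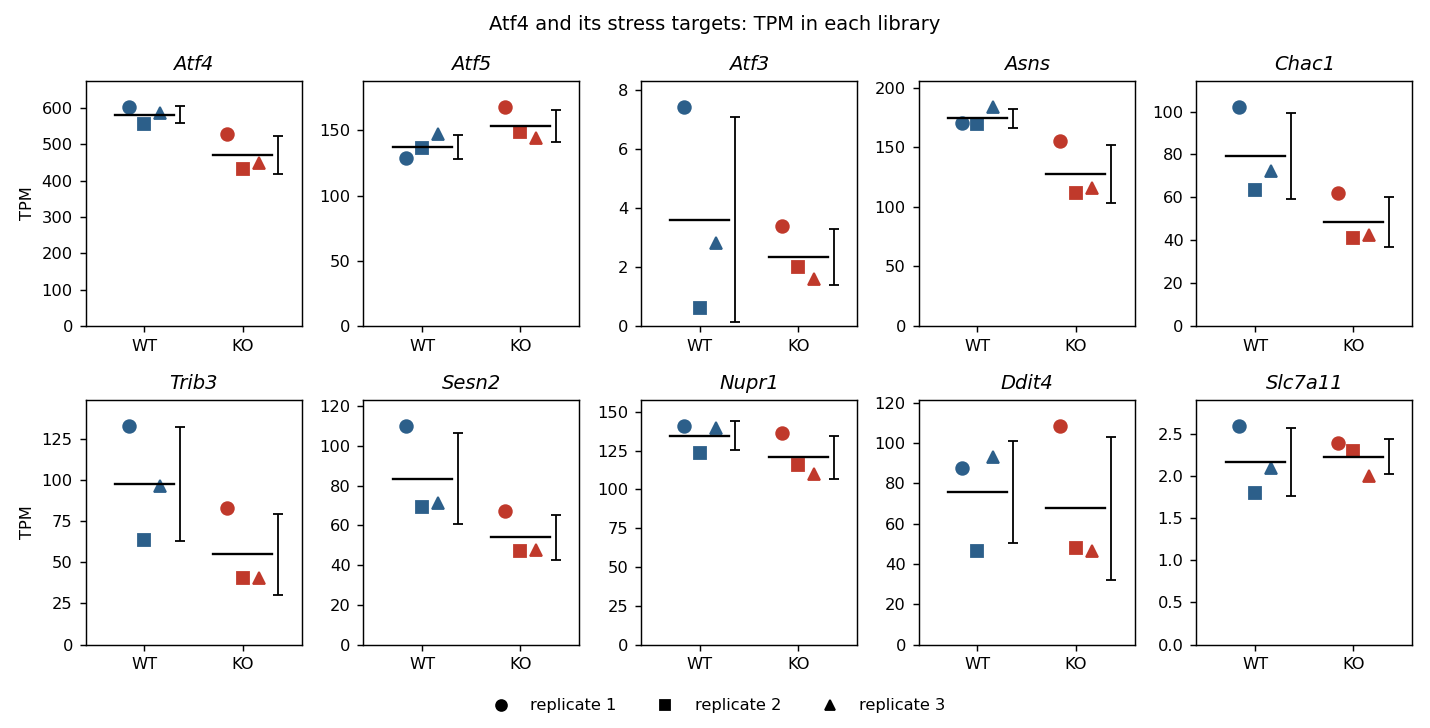
TPM (y axis, from 0) of the 10 genes in each WT library (blue) and KO library (red), with the mean of 3 libraries as a black line, its SD as an error bar, and replicate numbers as symbols. In Atf4, Asns, Chac1 and Sesn2 every KO point lies below every WT point, and in the other 6 genes the groups overlap.

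Of the 10 genes, 4 had every KO library below every WT library (Atf4, Asns, Chac1 and Sesn2) and none had the reverse. Over all tested genes the groups were separated in this way for 19.5% with KO below WT and for 23.4% with KO above WT. The median log2 fold change of the members was -0.26, against 0.01 over all genes tested, and 8 of the 10 were below 0, against 48.9% of all tested genes.

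The order of the libraries within each group was alike across the members. KO replicate 1 was the highest KO library for 10 of 10 genes, which held for 44.1% of all tested genes, risen and fallen together. Over all tested genes KO replicate 1 was also the KO library most like WT, so this order is not particular to the members. Its Pearson's r of log2(TPM + 1) with the WT libraries was 0.9822 to 0.9862, against 0.9612 to 0.9672 for KO replicates 2 and 3. WT replicate 2 was the lowest WT library for 9 of 10 genes, against 25% of tested genes, and WT replicate 1 the highest for 7 of 10, against 43.1%. KO replicate 1 exceeded the mean of KO replicates 2 and 3 by a ratio of 2.30 for Ddit4, 2.05 for Trib3, 1.89 for Atf3, 1.48 for Chac1 and 1.2 for Atf4. WT replicate 1 exceeded the mean of WT replicates 2 and 3 by 4.35 for Atf3, 1.66 for Trib3, 1.57 for Sesn2 and 1.5 for Chac1, but lay at 1.06 for Atf4 and 0.966 for Asns. Within KO, the library with the highest members (replicate 1) was the one with the lowest sum of late granulocyte markers, and within WT replicate 1 had the highest sum of those markers and the highest values of 7 members. The part of these cells, and of the other lineages whose markers were higher in KO, in the result was not tested. Some hypoxia-inducible genes, named because of these values, also had KO replicate 1 the highest KO and WT replicate 2 the lowest WT library. Bnip3 was at 318.2, 83.0 and 83.5 TPM in KO and 415.1, 89.3 and 257.2 TPM in WT. Ankrd37 and Pdk1 had this order too, while Ndrg1, Pfkfb3 and Adm had their lowest KO value in replicate 1. The part of hypoxia was not tested.

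**Figure D2:**
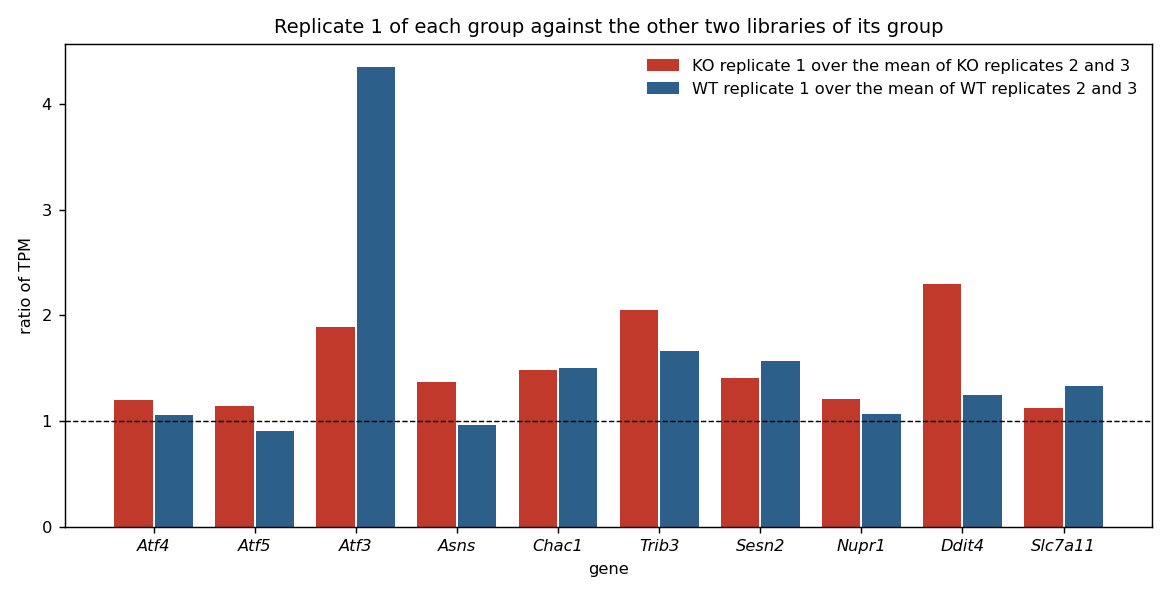
Ratio of TPM in replicate 1 to the mean of the other 2 libraries of its group (y axis, from 0, dashed line at 1) for each of the 10 genes, KO in red and WT in blue. All KO ratios lie above 1, up to 2.30 for Ddit4, and the tallest WT bar is 4.35 for Atf3.

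With KO replicate 1 and WT replicate 1 both left out, 5 of the 10 genes were called lower and none higher, where 27.3% of all tested genes were called lower and 28.4% higher. These were Atf4 (log2 fold change -0.37, limma adjusted p = 0.0042), Asns (-0.63, 0.0024), Chac1 (-0.68, 0.0045), Trib3 (-0.93, 0.026) and Sesn2 (-0.56, 0.0014). Without KO replicate 1 alone, 4 members were called lower (Atf4, Asns, Chac1 and Trib3), where 11.9% of tested genes were, and without any 1 of the other 5 libraries limma called none. Without WT replicate 1, 14.2% of tested genes were called lower and 21.6% higher. In these 5 fits 2 to 5 members had an unadjusted p under 0.05, a share that was 23.7% to 50.4% of all tested genes. Atf4, Asns, Chac1, Trib3 and Sesn2 kept a negative log2 fold change under every alternative run. So did Nupr1 (-0.25 to -0.10) and Ddit4 (-0.61 to -0.004), which were never called. Atf5 stayed between 0.05 and 0.21 and was never called either.

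**Figure D3:**
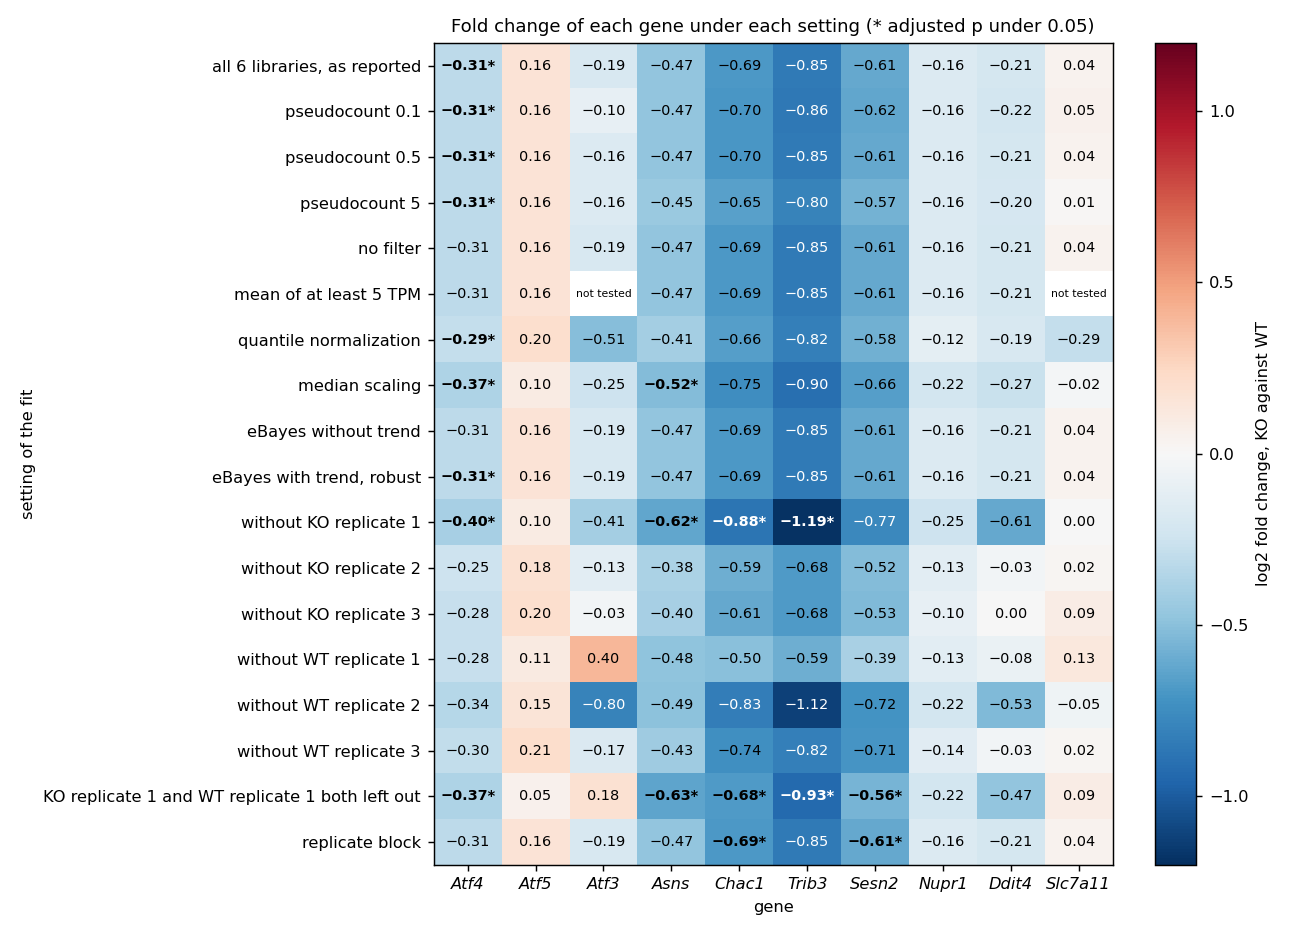
Log2 fold change of KO against WT (colour and printed value, blue for lower in KO) of each gene (x axis) under each setting of the fit (y axis), with an asterisk where the limma adjusted p is under 0.05. Atf4, Asns, Chac1, Trib3 and Sesn2 are blue in all rows, and the row with both replicate 1 libraries left out has 5 asterisks. Nupr1 and Ddit4 are also below 0 in all rows, with Ddit4 at only -0.004 without KO replicate 3.

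The pattern of Atf4 over the 6 libraries was shared by part of the members. Pearson's r of log2(TPM + 1) with Atf4 was 0.98 for Asns, 0.95 for Chac1, 0.93 for Trib3, 0.91 for Sesn2 and 0.89 for Nupr1, against 0.64 for Ddit4, 0.42 for Atf3, 0.15 for Slc7a11 and -0.35 for Atf5 (n = 6 libraries, which share their 2 groups). Values this high were common, since 1381 tested genes had an r of at least 0.9. Of 8931 genes with an assigned name and a mean of at least 5 TPM, the 5 most like Atf4 were Hax1 (r = 0.998), Med10 (0.997), Pck2 (0.996), Wrap73 (0.995) and Ninj1 (0.995). Pck2, the mitochondrial phosphoenolpyruvate carboxykinase, was at 56.9, 30.0 and 32.2 TPM in KO and 85.9, 67.7 and 72.2 TPM in WT. Hax1, a mitochondrial survival protein, was at 53.3, 39.7 and 40.6 TPM in KO and 65.6, 59.0 and 63.1 TPM in WT.

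Upstream of ATF4, of 10 tested genes for the eIF2 kinases and the eIF2 brake, 1 was called higher and none lower, where 12.9% and 6.11% of all tested genes were. Their median log2 fold change was -0.10. Without WT replicate 1 limma called 1 higher and 3 lower, and with both replicate 1 libraries left out 2 higher and 6 lower. Of all tested genes, 21.6% were higher and 14.2% lower in the former fit, and 28.4% and 27.3% in the latter. The gene called was Eif2ak2, which encodes PKR, the kinase for double-stranded RNA and itself an interferon-induced gene. It was at 39.9, 44.0 and 40.7 TPM in KO and 35.4, 33.4 and 35.0 TPM in WT, with no overlap (log2 fold change 0.26, SE 0.06, limma adjusted p = 0.033). Eif2ak3, the kinase PERK of the endoplasmic reticulum, had KO values of 17.0, 17.3 and 16.5 TPM and WT values of 16.6, 16.2 and 16.6 TPM, and Eif2ak4, the amino acid sensor GCN2, had 6.9, 5.9 and 5.6 TPM and 7.6, 6.8 and 7.1 TPM (limma adjusted p = 0.62 and 0.16). Kinase activity and eIF2 phosphorylation are not part of these data. These 2 kinases, and other genes named without a call, were chosen after their values were seen.

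Among 18 tested bZIP partners and relatives of ATF4, 2 were called higher and 2 lower (11.1% each), where 12.9% and 6.11% of all tested genes were. Their median log2 fold change was 0.07. With both replicate 1 libraries left out, 6 were higher and 3 lower, where 28.4% and 27.3% of all tested genes were. Nfe2l2, which encodes the oxidative stress factor NRF2, was at 79.3, 96.2 and 87.8 TPM in KO and 61.2, 62.6 and 64.1 TPM in WT (log2 fold change 0.48, limma adjusted p = 0.016). Atf6, a sensor of the endoplasmic reticulum, rose by 0.45 (adjusted p = 0.048), while its relative in name Atf1 fell by 0.29 (0.034) and Nfe2l1, which raises proteasome genes, fell by 0.42 (0.047) on the log2 scale. The direct partners were not called: Ddit3, which encodes CHOP, was at 17.3, 14.0 and 13.4 TPM in KO and 16.9, 13.5 and 15.9 TPM in WT (adjusted p = 0.80), and Cebpb and Cebpg had adjusted p-values of 0.91 and 0.23.

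Downstream, the metabolic branches of the ATF4 programme held most of the 32 lower calls in the lists and none of the 26 higher ones. These lists were chosen with earlier results of these data known and are not independent evidence of a direction. Of 21 tested genes for aminoacyl-tRNA synthetases and the tRNA exporter Xpot, 14 were lower and none higher, where 6.11% and 12.9% of all tested genes were. Their median log2 fold change was -0.32. Every KO library lay below every WT library for 18 of them, as for 19.5% of all tested genes. Gars, the glycyl-tRNA synthetase, was at 425.3, 327.5 and 327.8 TPM in KO and 543.2, 479.4 and 504.9 TPM in WT (log2 fold change -0.51, limma adjusted p = 0.032). Lars and Yars, for leucine and tyrosine, fell by 0.41 and 0.43 on the log2 scale (0.029 and 0.036), and Farsa, a subunit of the enzyme for phenylalanine, by 0.20 (0.027). KO replicate 1 was again nearest to WT in Gars, Lars and Yars.

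Of 14 tested enzymes of serine, proline and one-carbon metabolism, 7 were lower and none higher, where 6.11% and 12.9% of all tested genes were. All 14 log2 fold changes were below 0 (median -0.44), as were 48.9% of those of all tested genes. Mthfd2, the mitochondrial folate dehydrogenase, was at 112.8, 76.1 and 79.5 TPM in KO and 143.9, 135.0 and 141.9 TPM in WT (log2 fold change -0.67, limma adjusted p = 0.032). Shmt2, the mitochondrial serine hydroxymethyltransferase, fell by 0.41 (0.035) and Got1, the cytosolic aspartate aminotransferase, by 0.42 (0.021). Aldh1l2, a mitochondrial folate enzyme, was low at 3.2, 1.3 and 1.3 TPM in KO and 6.0, 4.0 and 5.0 TPM in WT (log2 fold change -1.08, adjusted p = 0.040).

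Of 10 tested amino acid transporters linked to ATF4, 3 were lower and none higher, where 6.11% and 12.9% of all tested genes were. Their median log2 fold change was -0.18. Slc7a5, the light chain of the large neutral amino acid transporter, was at 386.2, 330.5 and 340.0 TPM in KO and 503.6, 416.8 and 426.9 TPM in WT (log2 fold change -0.35, limma adjusted p = 0.049). Slc7a1, a carrier of arginine and lysine, fell by 0.37 (0.038) and Slc1a5, a glutamine transporter, by 0.22 (0.038). Slc3a2, which encodes the shared heavy chain that pairs with both Slc7a5 and Slc7a11, had a log2 fold change of -0.14 (adjusted p = 0.25).

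These 3 branches had 0 limma calls without KO replicate 2, KO replicate 3, WT replicate 2 or WT replicate 3, where 16 synthetase genes, 8 to 11 enzymes and 4 to 5 transporters had an unadjusted p under 0.05, as had 23.7% to 28.6% of all tested genes. Meanwhile their median log2 fold changes stayed between -0.28 and -0.34 (synthetases), -0.37 and -0.45 (enzymes), and -0.16 and -0.21 (transporters) without these or without WT replicate 1. With KO replicate 1 and WT replicate 1 both left out, 20 of 21 synthetase genes, 12 of 14 enzymes and 6 of 10 transporters were lower, and 1 transporter was higher. In that fit 27.3% of all tested genes were lower and 28.4% higher. The composite core stood in the promoter of 3 of 13 synthetase genes with an entry (Aars, Gars and Tars), 3 of 12 enzymes (Got1, Pck2 and Pycr1) and 0 of 7 transporters. It also stood in 2 of 9 relatives of the members (Jdp2 and Slc7a7) and 2 of 19 further stress targets (Herpud1 and Jdp2). For bZIP genes it was 1 of 17 (Jdp2), and for the unfolded protein response 1 of 18 (Herpud1). Jdp2, Slc7a7 and Herpud1 were not called (log2 fold change 0.09, 0.26 and -0.07). Among all tested genes the core stood in 4.21% of those called lower with an entry, 2.99% of those called higher and 2.52% of all.

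Of 24 further stress targets of ATF4 tested, 2 were higher (8.33%) and 1 lower (4.17%), where 12.9% and 6.11% of all tested genes were. Their median log2 fold change was 0.02. With both replicate 1 libraries left out, 8 were higher and 5 lower, where 28.4% and 27.3% of all tested genes were. Gdf15, a secreted stress cytokine that p53 also raises, was at 1.9, 3.1 and 2.8 TPM in KO and 0.4, 0.3 and 0.4 TPM in WT (log2 fold change 1.38, limma adjusted p = 0.011). It passed the filter through the KO libraries alone, which favoured a higher call, here and in the p53 list. Klhl24, a ubiquitin ligase adaptor, rose by 0.67 (0.018), and the gene that fell was the asparaginyl-tRNA synthetase Nars (-0.34, adjusted p = 0.039), which is in the synthetase list too. Ppp1r15a, which encodes GADD34 and ends the eIF2 block, was at 34.5, 30.6 and 28.4 TPM in KO and 61.3, 28.2 and 30.2 TPM in WT, so that WT replicate 1 alone was high.

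The unfolded protein response of the endoplasmic reticulum, which shares the PERK arm with ATF4, went the other way. Of 23 genes tested, 11 were higher and none lower, where 12.9% and 6.11% of all tested genes were. Their median log2 fold change was 0.17. Every KO library lay above every WT library for 16 of them, as for 23.4% of all tested genes. Dnajb9, an endoplasmic reticulum co-chaperone, was at 70.0, 73.3 and 67.4 TPM in KO and 49.9, 52.1 and 55.1 TPM in WT (log2 fold change 0.42, limma adjusted p = 0.014). Creld2, Manf and Ero1lb, a chaperone-like disulphide isomerase, a secreted survival factor and an oxidase, rose by 0.41 (0.023), 0.22 (0.025) and 0.66 (0.026). After median scaling 4 of the 23 were higher and the median was 0.11, and limma called 0 without KO replicate 2, KO replicate 3, WT replicate 2 or WT replicate 3 (12 to 15 at an unadjusted p under 0.05), with medians between 0.15 and 0.17. With both replicate 1 libraries left out, 18 were higher, where 28.4% of all tested genes were.

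**Figure D4:**
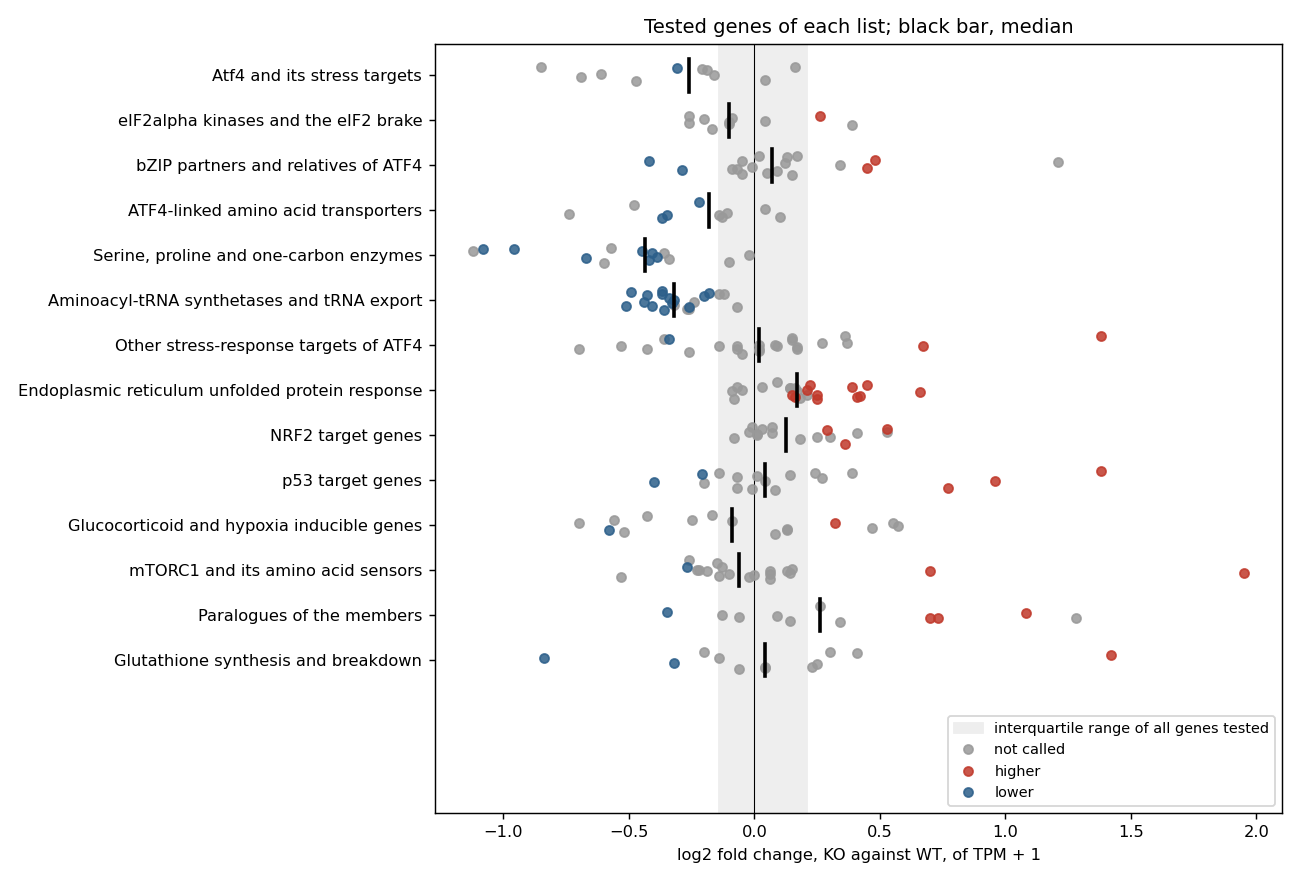
Log2 fold change of KO against WT (x axis) of each tested gene in the 10 members and in each list (y axis), red where called higher, blue where called lower and grey where not called, with the list median as a black bar and the interquartile range of all 13575 tested genes as a grey band. Points of the synthetase list lie left of 0 (median -0.32), and those of the unfolded protein response lie mostly right of it (median 0.17).

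Other inputs to the members were compared through lists of their own. Among 16 NRF2 target genes, a group that shares Slc7a11 as a target, 3 were higher (18.8%, against 12.9% of all tested genes) and none lower: Nqo1 (log2 fold change 0.53, limma adjusted p = 0.033), Slc48a1 (0.29, 0.029) and Prdx1 (0.36, 0.044). Among 17 p53 target genes, which in other settings include Sesn2, 3 were higher (Btg2, Gdf15 and Trp53inp1) and 2 lower (Phlda3 and Ei24). These were 17.6% and 11.8%, against 12.9% and 6.11% of all tested genes. Among 15 genes induced by glucocorticoids or hypoxia, as Ddit4 is, Per1 was higher (0.32, adjusted p = 0.035) and Zbtb16 lower (-0.58, 0.031). The medians of these 3 lists were 0.13, 0.04 and -0.09. With both replicate 1 libraries left out, 10 NRF2 targets were higher and none lower, 7 p53 targets were higher and 2 lower, and 4 genes of the glucocorticoid and hypoxia list were higher and 3 lower. In that fit 28.4% of all tested genes were higher and 27.3% lower. Without WT replicate 1 alone, 7 NRF2 targets were higher, where 21.6% of all tested genes were.

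Around the growth kinase that Sesn2 and Ddit4 restrain, 2 of 20 tested genes of mTORC1 and its amino acid sensors were higher and 1 lower. Of all tested genes, 12.9% and 6.11% were. After quantile normalization 1 was higher and 5 lower (median log2 fold change -0.24, against -0.06), and after median scaling 2 and 4. All tested genes turned as well, from 1745 higher and 830 lower to 1346 and 1722 (quantile) and 1568 and 1844 (median scaling). Leaving out KO replicate 1 gave 2 higher and 5 lower (15.2% and 11.9% of all tested genes). Leaving out WT replicate 1 gave 2 and 4 (21.6% and 14.2%), and leaving out both gave 3 and 9 (28.4% and 27.3%). Deptor, an inhibitor within the mTOR complexes, was at 7.7, 13.7 and 12.3 TPM in KO and 2.0, 2.0 and 2.3 TPM in WT (log2 fold change 1.95, limma adjusted p = 0.011). Nprl3, of the complex that restrains mTORC1 when amino acids are lacking, fell by 0.27 (0.040). Sesn3, a relative of Sesn2, was at 2.3, 3.6 and 3.3 TPM in KO and 1.9, 1.6 and 1.0 TPM in WT (log2 fold change 0.70, adjusted p = 0.047), and Sesn1 had a log2 fold change of 0.14 (adjusted p = 0.17). Sesn2 itself was negative in every fit run.

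Of 11 tested relatives of the members, 3 were higher and 1 lower, where 12.9% and 6.11% of all tested genes were. Their median log2 fold change was 0.26. After quantile normalization 1 was higher and none lower (median 0.07), and without WT replicate 1 limma called 7 higher and 2 lower (median 0.44). In the latter fit 21.6% of all tested genes were higher and 14.2% lower. Slc7a8, a carrier of the same family as Slc7a11, was at 20.7, 30.7 and 27.8 TPM in KO and 15.7, 10.2 and 10.2 TPM in WT (log2 fold change 1.08, limma adjusted p = 0.023), and Nupr1l, a relative of Nupr1, rose by 0.73 (0.015) from a WT mean of 0.70 TPM. Nupr1l passed the filter through the KO libraries alone, which favoured a higher call. Chac2, which encodes the constitutive relative of Chac1 in glutathione breakdown, was at 6.1, 4.8 and 4.4 TPM in KO and 4.9, 5.0 and 6.1 TPM in WT (adjusted p = 0.77). Of 12 tested genes of glutathione synthesis and breakdown, Ggt7 was higher (1.42, adjusted p = 0.014), and Gss, the glutathione synthetase, and Lap3 were lower (-0.84, 0.022 and -0.32, 0.030). With both replicate 1 libraries left out, 5 of the 12 were higher and 3 lower, where 28.4% and 27.3% of all tested genes were.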

How the data were processed

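Polyadenylated RNA of 3 KO and 3 WT libraries was sequenced as stranded 100 bp read pairs, with about 120 M reads per library per the labels' protocols. The submitters' processing notes name featureCounts 1.6.2, STAR 2.6.1e, cutadapt 1.9.1 and Trim Galore 0.4.2 with the mm10 build. No source used here gives the annotation, strand setting or step to TPM. What the authors deposited is 1 TPM value per gene symbol, with 1 decimal. TPM keeps no depth, so counting error is unknown.

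In limma 3.58.1 under R 4.3.3, log2(TPM + 1) was fitted with a single genotype term and a mean-variance trend. The 13575 genes reaching 1 TPM in 3 or more libraries were tested, with Benjamini-Hochberg adjustment over all tested genes. The fit was also run on simulated data with independent noise for each gene. Such data lack the shared deviations of replicate 1, so that run cannot give the error rate in these libraries. No library was a duplicate: identical TPM in 2 libraries of a group reached 8.48% of tested genes. The members and lists were chosen with earlier results of these data known. Named genes are the members, Chaf1b, the 5 genes most like Atf4 and, per list, up to 4 called genes with the smallest adjusted p in the majority direction and 2 in the other; others were named after their values were seen. List counts leave out the members, 1 symbol (Samtor) had no row, and some genes are in several lists. Promoters and positions came from RefSeq GRCm38.p6. The alternatives tried were pseudocounts of 0.1, 0.5 and 5, all genes without the filter, a minimum mean of 5 TPM, quantile normalization, median scaling, other variance settings, leaving out libraries and a replicate block.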

Additional observations from a re-analysis of the deposited data

How the results depend on the processing

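TPM keeps no depth, values below about 1 TPM are coarse at 1 decimal, and 3 libraries a group with replicate 1 apart in each limit every call. Of the members, 0 were called with no filter, with a mean of at least 5 TPM or without the variance trend (4 had an unadjusted limma p under 0.05 in each), 2 after median scaling, and 5 with KO replicate 1 and WT replicate 1 both left out. Leaving out 1 library gave 0 to 4 members called. The list genes called numbered 58 with all libraries, 37 with no filter, 36 without the trend, 126 with both replicate 1 libraries left out and 0 to 84 with 1 library left out. All genes called numbered 2575, 1578 with a mean of at least 5 TPM, 7569 with both replicate 1 libraries left out and 0 to 4850 with 1 library left out. A sign change occurred for Atf3 (-0.80 to 0.40 with 1 library left out, positive only without WT replicate 1, and 0.18 with both replicate 1 libraries left out) and Slc7a11 (-0.29 by quantile normalization, -0.02 by median scaling, and -0.05 to 0.13 with 1 library left out, negative without WT replicate 2 and, at -0.002, without KO replicate 1), neither called in any fit. The cause was not tested. The members, Chaf1b and the list genes named by rule, 51 in all, were followed under the alternatives, and 42 of them were called with all libraries. Genes named for likeness to Atf4 or after their values were seen were not followed. Of 859 values of the 51 genes under alternatives, 600 kept direction and side of the threshold, 243 lost a call, 10 gained one and 6 changed sign.

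Taken over all 13575 tested genes, same-numbered KO and WT libraries did not deviate together. The correlation of their deviations from the group means was -0.199, -0.145 and -0.164 for numbers 1, 2 and 3. With 3 libraries a group the deviations are tied to each other, so this cannot settle whether the numbers pair the libraries. Among the members, a replicate block lowered the SE from 0.22 to 0.06 for Chac1 and Sesn2 and from 0.37 to 0.14 for Trib3. It stayed at 0.13 for Asns and rose from 0.08 to 0.09 for Atf5. A replicate block called 333 genes, 2 members (Chac1, adjusted p = 0.045, and Sesn2, 0.048) and 7 list genes. With the block, Atf4 was not called (adjusted p = 0.071), and 0 synthetase genes and 0 genes of the unfolded protein response were called (16 and 15 at an unadjusted p under 0.05).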

Other observations

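KO replicate 1 lay above the other KO libraries in further genes linked to ATF4, which are named because of these values. Cth, which encodes the enzyme that makes cysteine from cystathionine, had 28.0 TPM in KO replicate 1 but 7.8 and 8.6 TPM in the other KO libraries. WT values were 27.4, 25.6 and 32.4 TPM. KO replicate 1 thus lay within the WT range and the other KO libraries far below it (log2 fold change -1.12, limma adjusted p = 0.12). Stc2, a secreted glycoprotein of the stress response, was at 184.3, 79.1 and 86.0 TPM in KO and 237.4, 122.2 and 186.3 TPM in WT (adjusted p = 0.23). Eif4ebp1, the translation brake that ATF4 raises, was at 424.8, 301.3 and 316.4 TPM in KO and 606.5, 427.5 and 474.8 TPM in WT (adjusted p = 0.076).

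WT replicate 1 lay above the other WT libraries in 3 further stress genes, also named because of their values, and every KO library lay between it and them. Hmox1, the haem oxygenase, was at 121.2 TPM there and at 40.4 and 42.9 TPM in WT replicates 2 and 3, with 55.7, 62.4 and 58.3 TPM in KO. Gadd45a was at 124.1 TPM there, 43.2 and 55.3 TPM in the other WT libraries and 80.0, 96.5 and 83.3 TPM in KO. Jun was at 18.7 TPM there, 0.9 and 4.6 TPM in the other WT libraries and 14.4, 12.9 and 11.2 TPM in KO.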
